A study of Arabidopsis thaliana with 14 samples.

Results

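Tau class glutathione transferases are plant enzymes that join glutathione to reactive or foreign molecules, or reduce peroxides with it. Many of their genes are known to respond to xenobiotics, oxylipins and other stresses, and they often lie side by side in the genome as tandem copies. The genes described here are GSTU18 (AT1G10360), GSTU22 (AT1G78340), GSTU23 (AT1G78320), GSTU25 (AT1G17180) and GSTU27 (AT3G43800), each measured by 1 probe set. They are 5 of the 11 tau class genes that had a single-gene probe set here, and of 22746 probe sets in all. The family list written for this comparison holds 28 loci, of which 17 had no such probe set in the annotation used.

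The members were selected on measured values of these same arrays, taken by gene symbol from earlier results. Which comparison picked each gene is not recorded. The changes of the 5 genes are therefore given with their standard errors as a description and with no p-value, in every comparison, and counts of members past a threshold support nothing.

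The study measured whole seedlings of Arabidopsis thaliana, 12 days old, grown on agar with 16 h of light and 8 h of dark, on Affymetrix arrays. Mutants of the COP9 signalosome, which takes the small protein RUB off cullin ubiquitin ligases, were set against wild types. The csn5a-1 mutant (3 arrays), in the subunit with the catalytic site, was compared with Columbia (3 arrays). The line labelled CSN8, a mutant named after another subunit, was compared with Wassilewskija, each with DTT (2 arrays per group) and without (2 arrays per group), and each of these groups had 1 array in batch 1 and 1 in batch 2. DTT usually stands for dithiothreitol, which reduces disulfide bonds and so stresses the endoplasmic reticulum. The sample names carry the DTT label, but dose and duration are not given and the protocol text, the same for all arrays, mentions no treatment. The labels state neither the accession background nor the allele of the CSN8 line, nor how many seedlings were pooled per array. An accession difference could thus lie within the CSN8 differences from Wassilewskija and cannot be told apart from the mutation.

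CSN5A and COP9, the CSN8 gene, had 0 single-gene probe sets, and the mutant labels could therefore not be tested on them. The DTT label was tested on BZIP60, a regulator of the unfolded protein response, which averaged 10.77 ± 0.10 in CSN8 + DTT, 11.21 ± 0.38 in Wassilewskija + DTT, 7.94 ± 0.07 in CSN8 and 8.62 ± 0.43 in Wassilewskija (log2 levels, SD, n = 2 each). Of 8 measured genes of that response (13 listed), 5 rose with DTT in CSN8 and 4 in Wassilewskija in limma, and with the labelled batch as a block 7 passed in each. Of the tissue markers, 1 of 7 for green tissue, 2 of 7 for root, 1 of 7 for seed and 0 of 5 for flower had a probe set, so the tissue label could be checked only in part. LHCB4.2, a light-harvesting protein gene of green tissue, was between 9.28 and 12.38 in all 14 arrays. The measured seed marker, M17, was at 10.42 to 10.91 in Columbia and 6.25 to 6.57 in csn5a-1. In the 8 other arrays M17 was between 2.40 and 8.80, and why it varied was not tested. The value distributions of the 6 Columbia and csn5a-1 arrays and of the 8 other arrays differed by a median of 0.472 to 0.534 log2 units, against at most 0.076 within a set, so the sets look normalized separately. In the 8-array set, the array of CSN8 in batch 1 stood apart with a GAPDH 3′ to 5′ log2 difference, a measure of RNA integrity, of 1.67, against 0.25 to 0.62 in the other 7. Levels are log2 values of a probe set and are compared between arrays, never between genes.

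GSTU25, whose enzyme is known to act on the explosive trinitrotoluene, was higher in csn5a-1 than in Columbia. Its log2 levels were 6.09, 6.14 and 5.77 in csn5a-1, against 4.83, 4.64 and 4.58 in Columbia. The lowest csn5a-1 array lay above the highest Columbia array, and the difference was 1.32 ± 0.14 (SE, n = 3 each), or 2.49-fold. GSTU27 showed the same order, with 8.83, 8.56 and 8.74 in csn5a-1 and 7.76, 7.73 and 7.68 in Columbia. Its groups did not overlap either, with a difference of 0.99 ± 0.11. GSTU25 ranked only between the 37.05th and 39.6th percentile of its array in Columbia. No detection call was used, so that low signal cannot be told apart from background.

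GSTU18 and GSTU23 went the other way. GSTU18 was at 8.35, 8.69 and 8.70 in csn5a-1, against 9.26, 8.97 and 9.20 in Columbia, a difference of -0.56 ± 0.14. GSTU23 was at 4.62, 4.93 and 4.65 in csn5a-1, against 5.08, 5.50 and 5.29 in Columbia, a difference of -0.56 ± 0.15 (SE, n = 3 each). In both genes the groups were separate, with nearest arrays of 8.70 and 8.97 for GSTU18 and of 4.93 and 5.08 for GSTU23. GSTU22 was at 5.28, 5.15 and 4.90 in csn5a-1 and 5.005, 4.90 and 4.53 in Columbia, and these ranges overlapped (0.30 ± 0.16). In both groups GSTU22 and GSTU23 ranked between the 36.6th and 45.6th percentile of their array, and the same limit of low signal holds for them.

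In limma over all probe sets, 4 of the 5 members were past an adjusted p of 0.05 between csn5a-1 and Columbia, 2 higher and 2 lower in the mutant. Of all probe sets, 32.9% were past it, 16.0% higher and 16.8% lower. The members may have been picked on this very comparison, so nothing is read from their share. Without Columbia replicate 3 the count was 2, with GSTU18 and GSTU23 no longer past the threshold. It was 3 without Columbia replicate 1 (GSTU18 lost), and without Columbia replicate 2, csn5a-1 replicate 1 or csn5a-1 replicate 3 (GSTU23 lost). The actin 3′ to 5′ log2 difference was 3.93 to 4.95 in csn5a-1 and 3.35 to 3.67 in Columbia. The GAPDH 3′ to 5′ difference overlapped, at 1.29 to 1.67 in csn5a-1 and 1.24 to 1.67 in Columbia. The seed marker M17, a late embryo protein gene, was at 6.25 to 6.57 in csn5a-1 and 10.42 to 10.91 in Columbia. Of the root hair genes EXPA7 and EXPA18, the root markers measured, EXPA7 was at 4.34 to 5.13 in csn5a-1 and 4.10 to 4.21 in Columbia (0.70 ± 0.21, adjusted p = 0.0394 in limma), and EXPA18 did not pass (0.39 ± 0.13). The part of RNA quality and of tissue makeup in these differences was not tested.

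**Figure D1:**
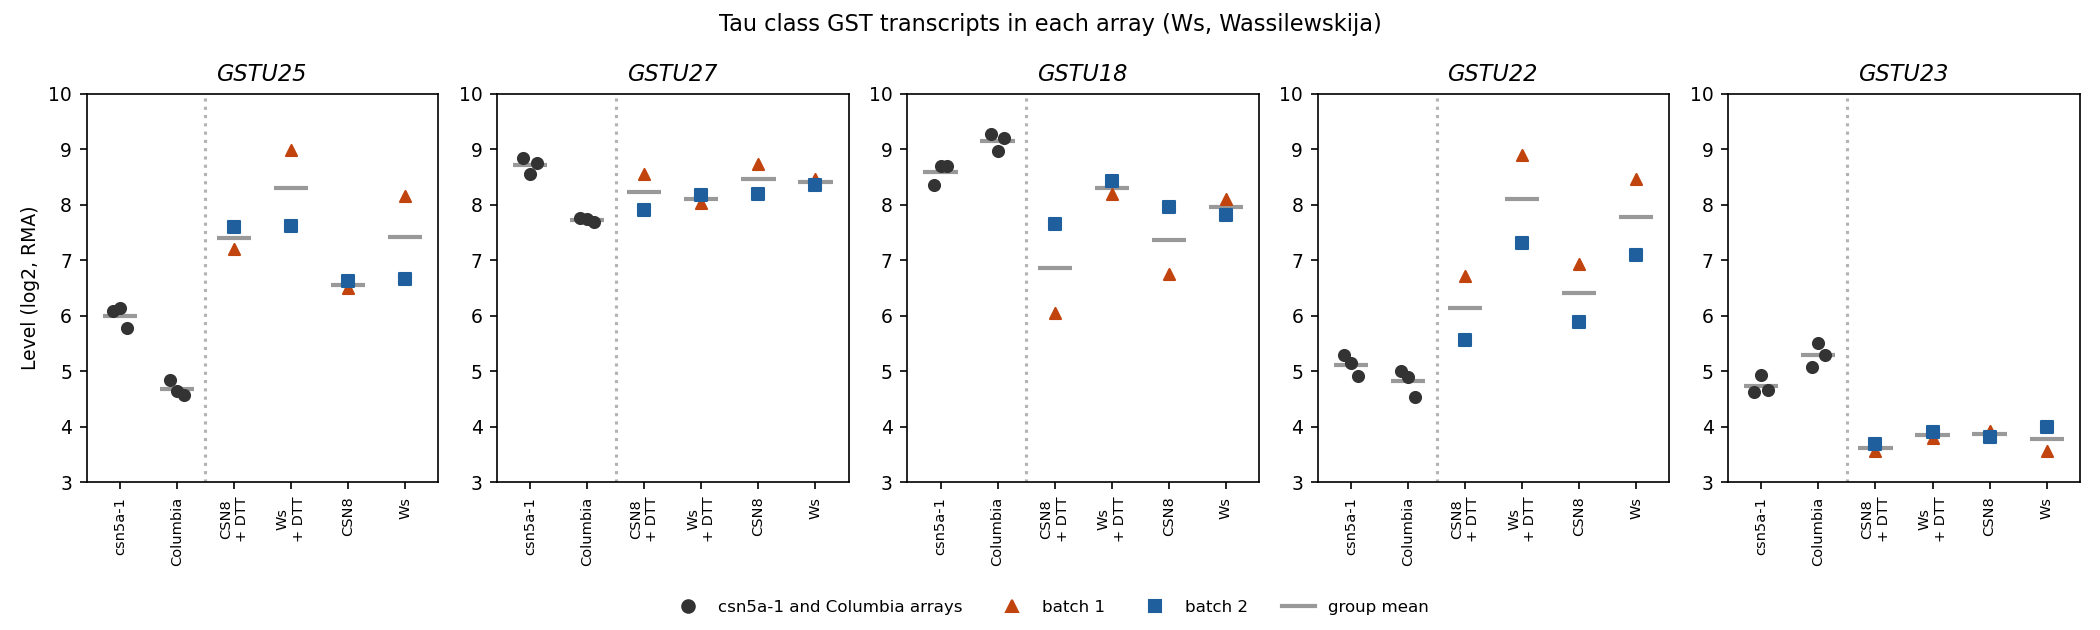
Log2 level of each of the 5 genes (vertical axes) in each of the 14 arrays, by group (horizontal axes), with grey bars for group means, triangles for batch 1 and squares for batch 2. The dotted line separates the sets of arrays that look normalized separately. GSTU25 lies higher in csn5a-1 than in Columbia, and GSTU22 lies lower in CSN8 than in Wassilewskija in each batch, with and without DTT.

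In the CSN8 line GSTU22 was the member with the steadiest difference from Wassilewskija. Without DTT its levels in batches 1 and 2 were 6.94 and 5.88 in CSN8, against 8.45 and 7.10 in Wassilewskija. With DTT they were 6.71 and 5.56 in CSN8 + DTT, against 8.89 and 7.32 in Wassilewskija + DTT. Within every batch the mutant was lower, by log2 differences of -1.52 and -1.21 without DTT and of -2.18 and -1.75 with it. All 4 groups were also higher in batch 1 than in batch 2, by 1.05 to 1.58. That step is about as large as the mutant difference, and the highest CSN8 array (6.94, batch 1) lay just below the lowest Wassilewskija array (7.10, batch 2).

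The fitted differences of GSTU22 were -1.37 ± 0.71 without DTT and -1.97 ± 0.71 with DTT (SE, n = 2 each). With the labelled batch as a block the SE was 0.17 in both. No member was past the threshold in limma without the block, and at an unadjusted p under 0.05 there were 0 of 5 without DTT and 2 of 5 with DTT, where 21.4% and 18.8% of all probe sets were. Of all probe sets, 5.83% were past the adjusted threshold without DTT and 4.13% with DTT. With the batch as a block GSTU22 was the 1 member past it in each, where 11.9% and 8.99% of all probe sets were. The members may have been picked on these comparisons, so nothing is read from these counts. M17 moved with the batch as well, at 2.40 to 4.80 in batch 1 and 5.34 to 8.80 in batch 2 over the 4 groups, and its part in the level of GSTU22 was not tested. EXPA18 was lower in CSN8 than in Wassilewskija without DTT by a log2 difference of -0.97 ± 0.23 (adjusted p = 0.0598 in limma, 0.0095 with the block), and its part was not tested either.

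The CSN8 difference of GSTU25 lay in batch 1. There GSTU25 was at 6.49 in CSN8 and 8.16 in Wassilewskija, and at 7.20 in CSN8 + DTT and 8.97 in Wassilewskija + DTT. In batch 2 it was at 6.62 in CSN8 and 6.66 in Wassilewskija, and at 7.59 in CSN8 + DTT and 7.62 in Wassilewskija + DTT. Both wild type groups were thus higher in batch 1, by 1.5 without DTT and 1.36 with it, while both CSN8 groups were slightly lower there (-0.13 without DTT and -0.39 with it). The within-batch differences were -1.67 and -0.03 without DTT and -1.77 and -0.03 with DTT. The fitted differences were -0.85 ± 0.57 and -0.90 ± 0.57, and without the batch 1 array of Wassilewskija or of Wassilewskija + DTT they were -0.10 and -0.22.

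GSTU18 differed between the batches on the mutant side instead. In batch 1 it was at 6.75 in CSN8 and 8.10 in Wassilewskija, and at 6.05 in CSN8 + DTT and 8.19 in Wassilewskija + DTT. In batch 2 it was at 7.95 in CSN8 and 7.81 in Wassilewskija, and at 7.65 in CSN8 + DTT and 8.42 in Wassilewskija + DTT. The differences were thus -1.35 without DTT and -2.14 with it in batch 1, and 0.14 and -0.77 in batch 2. The fitted differences were -0.60 ± 0.56 without DTT and -1.46 ± 0.56 with it. Without the batch 1 array of CSN8 the first was near 0 (-0.0041), and without that of CSN8 + DTT the second was -0.65. The GAPDH 3′ to 5′ difference, 1.67 in the CSN8 array of batch 1, was 0.49 in the CSN8 + DTT array of batch 1, where GSTU18 had its lowest level. The actin 3′ to 5′ difference was 4.28 in the CSN8 array and 4.15 in the CSN8 + DTT array of batch 1. In the other arrays of the set it was between 3.22 and 3.90. The part of RNA quality in these values was not tested.

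**Figure D2:**
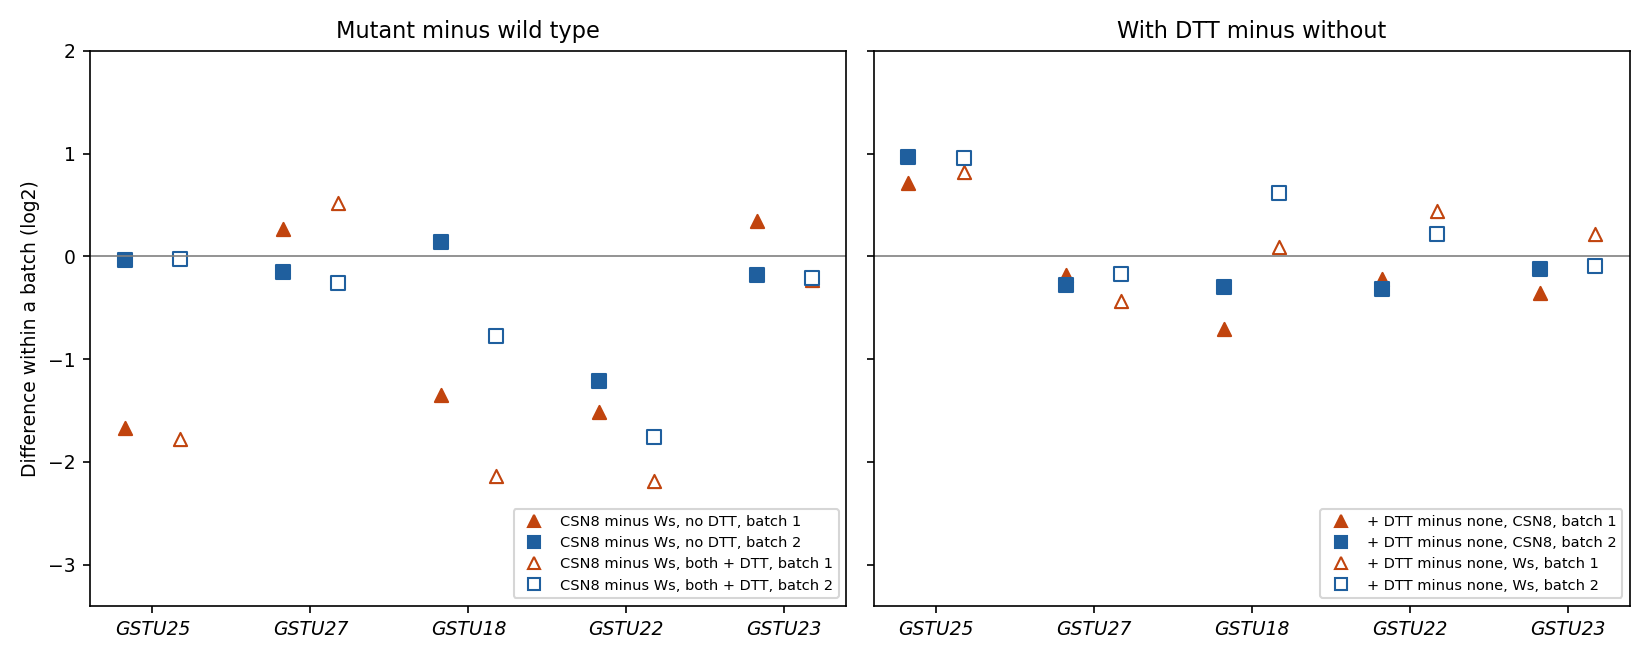
Log2 differences within each batch (vertical axes) for the 5 genes, mutant minus wild type on the left and with DTT minus without on the right; triangles are batch 1, squares batch 2, and Ws is Wassilewskija. GSTU22 is below 0 in all 4 mutant comparisons, GSTU25 and GSTU18 reach below -1 in batch 1 alone, and GSTU25 is above 0 in all 4 DTT comparisons.

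GSTU27 and GSTU23 had small differences in the CSN8 line. GSTU27 was at 8.73 and 8.19 in CSN8 and 8.47 and 8.34 in Wassilewskija (batches 1 and 2), a difference of 0.05 ± 0.26. With DTT it was at 8.55 and 7.91 in CSN8 + DTT and 8.03 and 8.17 in Wassilewskija + DTT (0.13 ± 0.26). The batches had opposite signs both times, and the 95% intervals of the differences ran from -0.57 to 0.68 and from -0.50 to 0.75. GSTU23 was between 3.56 and 3.98 in all 8 arrays, with differences of 0.08 ± 0.18 without DTT and -0.22 ± 0.18 with it. It ranked between the 30.0th and 34.8th percentile of the probe sets of each array there, and no detection call was used, so a low signal cannot be told apart from background.

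With the DTT label GSTU25 was the member with the largest positive difference. Within batches 1 and 2 it was higher with DTT by 0.71 and 0.97 in CSN8 and by 0.82 and 0.96 in Wassilewskija. All 4 differences were thus alike in size, while the fitted values, 0.84 ± 0.57 in CSN8 and 0.89 ± 0.57 in Wassilewskija, carry the spread between batches in their SE. Without 1 array, which leaves the batches unequal, the Wassilewskija value ranged from 0.14 (without Wassilewskija of batch 2) to 1.64 (without Wassilewskija of batch 1). GSTU27 was lower with DTT in all 4 pairs, by 0.17 to 0.43. GSTU22 and GSTU18 were lower with DTT in CSN8 and higher with DTT in Wassilewskija, in both batches. For GSTU22 the differences were -0.22 and -0.32 in CSN8 and 0.44 and 0.22 in Wassilewskija. For GSTU18 they were -0.70 and -0.30 in CSN8 and 0.09 and 0.61 in Wassilewskija. GSTU23 differed by -0.36 and -0.12 in CSN8 and by 0.22 and -0.09 in Wassilewskija.

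No member was past the threshold in limma with DTT against without, in CSN8 (1.29% of all probe sets past it) or in Wassilewskija (0.365%). None was past an unadjusted p of 0.05 in either, where 11.3% of all probe sets were in CSN8 and 6.52% in Wassilewskija. The root markers moved with the DTT label. EXPA18 was at 3.89 and 4.22 in CSN8 + DTT and 5.003 and 5.29 in CSN8 (-1.09 ± 0.23, adjusted p = 0.093 in limma, 0.0172 with the batch as a block). In Wassilewskija it fell with DTT (-1.69 ± 0.23, adjusted p = 0.047 in limma). EXPA7 differed by -1.28 ± 0.40 in CSN8 and -1.47 ± 0.40 in Wassilewskija and did not pass. The part of root tissue in the DTT differences of the members was not tested. For the DTT effect in CSN8 minus that in Wassilewskija, 0 of 22746 probe sets were past the adjusted threshold (0%), with 2.91% at an unadjusted p under 0.05 and none of the members. The fitted difference between the DTT effects was -0.85 ± 0.80 for GSTU18, -0.60 ± 1.01 for GSTU22 and -0.05 ± 0.81 for GSTU25. With the batch as a block the values of GSTU18 and GSTU22 had an SE of 0.62 and 0.24, 1 member was under an unadjusted p of 0.05, where 4.78% of all probe sets were, and again none passed after adjustment.

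The mutant effects without DTT, csn5a-1 against Columbia and CSN8 against Wassilewskija, differed most for GSTU25. It was higher in csn5a-1 and, in batch 1, lower in CSN8. The CSN8 effect minus the csn5a-1 effect was -2.17 ± 0.59 for GSTU25, -1.66 ± 0.74 for GSTU22 and -0.93 ± 0.28 for GSTU27. It was 0.64 ± 0.23 for GSTU23 and -0.04 ± 0.58 for GSTU18. In limma 2 of 5 members, GSTU25 and GSTU27, were past the threshold, where 17.6% of all probe sets were. With replicate number and batch as a block it was 4 of 5 members and 20.7%. The members may have been picked on this comparison, so nothing is read from these counts. Of the 6 other measured tau class genes, 2 passed in limma without the block. They were GSTU20 (-1.67 ± 0.48, adjusted p = 0.0342) and GSTU15 (0.73 ± 0.20, adjusted p = 0.0297). Without the batch 1 array of Wassilewskija the value of GSTU25 was -1.42, and without 1 array at a time the count of members ranged from 0 to 2. It was 0 without Columbia replicate 2 or 3, csn5a-1 replicate 1, Wassilewskija of batch 1 or CSN8 of batch 2.

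The sets of arrays also differed in where these genes stood. GSTU22 ranked between the 73.5th and 87.6th percentile of its array in Wassilewskija and between the 36.6th and 41.3rd in Columbia. GSTU25 ranked between the 67.6th and 85.1st percentile in Wassilewskija and between the 37.0th and 39.6th in Columbia. GSTU27 was between the 86.9th and 87.7th in Wassilewskija and the 73.2nd and 74.7th in Columbia. GSTU23 was lower in Wassilewskija (30.0th to 34.8th) than in Columbia (41.9th to 45.6th), and so was GSTU18 (82.0th to 84.6th against 87.7th to 89.97th). Accession and array set coincide here, so they cannot be told apart, and no test was made.

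Within the 8-array set, the group means of GSTU22 ran in the order CSN8 + DTT (6.14 ± 0.81), CSN8 (6.41 ± 0.74), Wassilewskija (7.77 ± 0.96) and Wassilewskija + DTT (8.10 ± 1.12; SD, n = 2 each). Of neighbours in that order, CSN8 and Wassilewskija alone differed by more than the larger of their SDs. For GSTU25 the order was CSN8 (6.56 ± 0.09), CSN8 + DTT (7.40 ± 0.28), Wassilewskija (7.41 ± 1.06) and Wassilewskija + DTT (8.30 ± 0.96). There CSN8 and CSN8 + DTT differed by more than the larger SD and the other neighbours did not. For GSTU18 it was CSN8 + DTT (6.85 ± 1.13), CSN8 (7.35 ± 0.85), Wassilewskija (7.96 ± 0.21) and Wassilewskija + DTT (8.31 ± 0.17), where the Wassilewskija groups alone differed by more than the larger SD. The means of GSTU27 ran from 8.10 in Wassilewskija + DTT to 8.46 in CSN8, and those of GSTU23 from 3.62 in CSN8 + DTT to 3.86 in CSN8, with all neighbours within the larger SD. Each group had 1 array per batch, so each SD is the spread between batches and leaves out the pairing by batch. Within batches 1 and 2 GSTU25 was higher with DTT in Wassilewskija too, by 0.82 and 0.96.

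By the gene order of the reference table (assembly TAIR10.1), 4 of the 5 members lie on chromosome 1 next to other tau class genes. GSTU23, GSTU22 and GSTU21 follow each other with 0 protein-coding genes between neighbours, and GSTU20 and GSTU19 are within 5 places. GSTU25 lies beside GSTU24 with GSTU26 within 5 places, and GSTU18 lies beside GSTU17. GSTU27, on chromosome 3, has no tau class gene within 5 places.

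Neighbouring genes had unequal values. In the cluster of GSTU22, the CSN8 differences of GSTU20 were -1.52 ± 0.37 without DTT (adjusted p = 0.0624 in limma, 0.0261 with the batch as a block) and -1.98 ± 0.37 with DTT (adjusted p = 0.0358), near those of GSTU22. In the same cluster GSTU21, whose signal was low (11.5th to 38.3rd percentile of its arrays) and cannot be told apart from background, differed by 0.02 ± 0.28 and -0.56 ± 0.28, and GSTU23 is given above. GSTU20 had its larger mutant difference without DTT in batch 2 (-2.12, against -0.91 in batch 1). GSTU26, close to GSTU25, differed by 0.49 ± 0.24 in csn5a-1 (adjusted p = 0.162 in limma) and by 0.66 ± 0.47 in CSN8. Its DTT differences in CSN8 were 0.45 and 0.01 in batches 1 and 2, and in Wassilewskija 1.13 and 0.01, where GSTU25 was higher by 0.71 or more in each.

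Over all 11 measured tau class genes, 5 were past the threshold between csn5a-1 and Columbia, 3 higher and 2 lower. Of all probe sets, 32.9% were past it. The 5 hold 4 members, which may have been picked on this comparison, and 1 of the 6 other genes. The gene outside the members was GSTU28, higher in csn5a-1 by 0.51 ± 0.13 (adjusted p = 0.0235 in limma). The median change of the 11 was 0.16, against -0.04 over all probe sets. The 11 include the 5 members chosen on these same arrays, so nothing is read from the medians given here. Between CSN8 and Wassilewskija 0 of 11 passed, where 5.83% of all probe sets did. An unadjusted p under 0.05 was reached by 3 of 11 (21.4% of all probe sets). The median was 0.02, as over all probe sets (0.02). With the batch as a block 3 of 11 passed, where 11.9% of all probe sets did. They were GSTU22, GSTU20 and GSTU28 (0.97 ± 0.24, adjusted p = 0.0704 in limma without the block and 0.00792 with it). With DTT 2 of 11 passed in limma without the block, where 4.13% of all probe sets did. GSTU28 was higher (1.44 ± 0.24, adjusted p = 0.028) and GSTU20 lower, with a median of -0.22 against 0.03.

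**Figure D3:**
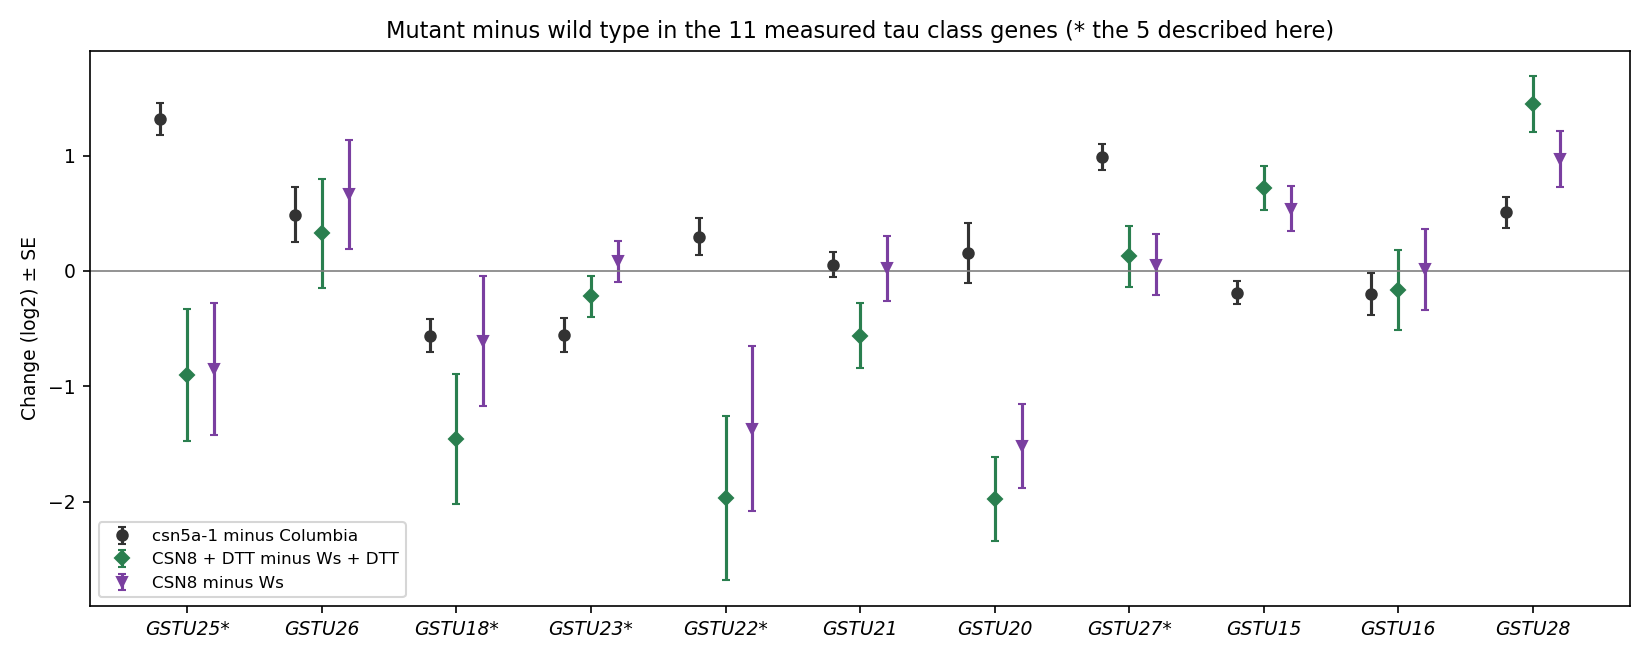
Mutant minus wild type (log2, vertical axis, bars are limma standard errors) for the 11 tau class genes (horizontal axis, neighbours on the chromosome side by side where they form clusters), asterisks on the 5 members, Ws for Wassilewskija. GSTU25 and GSTU27 stand above 0 in csn5a-1, GSTU22 and GSTU20 below -1 in CSN8 with and without DTT, and GSTU28 above 0 in all 3 comparisons.

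Of the other glutathione transferase classes, 4 of 26 listed genes were measured. In csn5a-1, MGST (AT1G65820, 0.87 ± 0.10, adjusted p = 0.000763) and GSTL3 of the lambda class (0.56 ± 0.10, adjusted p = 0.0041) rose, and the phi class genes GSTF4 and GSTF13 did not pass (limma). In CSN8 the only call of the 4 was GSTF4, which fell (-1.44 ± 0.29, adjusted p = 0.0369), and with DTT none passed, GSTF4 coming nearest (-1.24 ± 0.29, adjusted p = 0.067). The glutathione reductase genes GR1 (-0.62 ± 0.11) and GR2 (-0.89 ± 0.10), which regenerate glutathione and were the 2 measured of 14 listed genes of glutathione synthesis, reduction and conjugate transport, both fell in csn5a-1 (adjusted p = 0.00451 and 0.000645). Neither passed in CSN8, with DTT (0.59 ± 0.29 for GR1 and 0.09 ± 0.19 for GR2) or without (0.64 ± 0.29 and 0.24 ± 0.19). With the batch as a block GR1 passed in both, at an adjusted p of 0.0431 with DTT and 0.0287 without (limma).

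Genes known to respond to xenobiotics and oxylipins were partly measured (8 of 20 listed). In csn5a-1, 4 rose and 1 fell, where 32.9% of all probe sets passed. Among them were UPOX (2.79 ± 0.16), the transporter gene DTX3 (1.52 ± 0.20) and ZAT10 (0.97 ± 0.27), and AER, which fell (-0.74 ± 0.17). The median of the list was 0.19. In CSN8, UPOX rose (2.05 ± 0.28) and the glucosyltransferase gene UGT73B5 fell (-4.41 ± 0.36), with a median of -0.37. There 5.83% of all probe sets passed. With DTT both genes passed again, as did 4.13% of all probe sets. UPOX was at 2.67 ± 0.28 and UGT73B5 at -3.46 ± 0.36, with a median of 0.05. With the batch as a block AER (-0.996 and -1.53) and UGT73B4 (-1.24 and -1.23) were also past the threshold, lower in CSN8 without and with DTT, at adjusted p of 0.0115 to 0.0373 (limma). For DTT against no DTT none of the 8 passed, ZAT10 coming nearest at 1.72 ± 0.38 in CSN8 (adjusted p = 0.108, and 0.0346 with the block) and 1.22 ± 0.38 in Wassilewskija (adjusted p = 0.491). None of the other glutathione transferase or glutathione genes passed there either; the nearest were GSTF4 (0.44 ± 0.29) and GR1 (0.13 ± 0.29) in CSN8 and GSTF13 (0.30 ± 0.14) and GR2 (0.21 ± 0.19) in Wassilewskija. Of 15 listed regulators of such genes (TGA factors, SCL14 and NAC factors), 0 had a single-gene probe set.

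Profiles most like each member were sought among 1546 probe sets with a gene symbol, by the mean absolute difference of log2 values over the 14 arrays after subtracting each gene's mean in each array set. GSTU18 lay nearest to HPR (0.19), a gene of photorespiration, and CHLM (0.23), a gene of chlorophyll synthesis, where its own mean deviation was 0.47. The green tissue marker LHCB4.2 was likewise lower in csn5a-1 (11.18 to 11.42) than in Columbia (12.07 to 12.38; -0.88 ± 0.13, adjusted p = 0.00171 in limma). In batch 1 it was at 10.11 in CSN8 and 11.25 in Wassilewskija, and in batch 2 at 10.53 in CSN8 and 12.15 in Wassilewskija, lower in the mutant both times. Its fitted CSN8 difference without DTT was -1.38 ± 0.44 (adjusted p = 0.127 in limma, 0.00701 with the batch as a block). With DTT, LHCB4.2 was at 9.28 in CSN8 + DTT and 10.90 in Wassilewskija + DTT in batch 1, and at 9.94 and 11.90 in batch 2. The fitted difference with DTT was -1.79 ± 0.44 (adjusted p = 0.0782 in limma, 0.00371 with the block). The GSTU18 differences without DTT were not alike in the batches, at -1.35 in batch 1 and 0.14 in batch 2. With DTT GSTU18 was lower in the mutant in both batches, by -2.14 and -0.77. In whole seedlings fewer green cells and less RNA per cell cannot be told apart, and the part of tissue makeup in the level of GSTU18 was not tested.

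GSTU25 lay nearest to the autophagy gene ATG8H (0.27, own deviation 0.67) and AR781 (0.32). GSTU22 was nearest to IQD22 (0.30, own deviation 0.56) and the glucosyltransferase gene UGT76B1 (0.31). GSTU27 was nearest to THO5 (0.17) and IDH-V (0.17), at an own deviation of 0.34. GSTU23 was nearest to the peptide gene CLE26 (0.09) and ATSTE24 (0.10), where it deviated by only 0.19 itself, so the likeness means little there. These distances describe the arrays and carry no test.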

How the data were processed

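RNA of whole seedlings was measured on 14 Affymetrix arrays in 6 groups. The deposited values are log2 expression summaries per probe set. The submitters' processing notes name RMA and no version. RMA corrects background, quantile-normalizes and summarises probes. The number of arrays limits precision.

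Of 22810 probe sets, 64 controls were left out. The platform annotation gave 1 gene for 13513 probe sets, several for 503 and none for 8794, and the reference table held 13436 of the 13513. Groups came from sample titles, and columns were matched by sample identifier.

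With limma 3.58.1 in R 4.3.3, group means with no covariate were fitted over 22746 probe sets (lmFit, then contrasts.fit and eBayes). The 6 Columbia and csn5a-1 arrays formed 1 fit, the 8 other arrays another, and all 14 were used for the difference of mutant effects. Tests were two-sided, with Benjamini-Hochberg adjustment over all probe sets and a threshold of 0.05. The fit was tested on simulated data.

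The members and gene lists were chosen with earlier results of these data known. From each list up to 4 genes past the threshold were named per comparison, largest first, or else the 1 with the smallest p. Family neighbours, other members of short lists, tissue markers and genes called with the block alone were added after their values were seen. In the 8-array set equal numbers are a batch per the labels, and deviations of arrays of equal number correlated with r of 0.07 to 0.57. The labels call the 6 Columbia and csn5a-1 arrays biological replicates and do not say for the others whether batches were separate cultures, so p-values measure the spread between these arrays. Alternatives were the block, quantile normalization again, median centring, leaving out the dimmest 25% of probe sets, an intensity trend, fits on 2 groups alone and leaving out each array.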

Additional observations from a re-analysis of the deposited data

Results flagged for a closer look

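GSTU25 and GSTU27 were singled out because their CSN8 effect minus csn5a-1 effect was past the threshold in limma. Of all probe sets, 17.6% were past it. Both members may have been picked on this comparison, so the call supports nothing and the values are descriptions. The CSN8 effect minus the csn5a-1 effect was -2.17 for GSTU25 and -0.93 for GSTU27. Without 1 array at a time it ranged from -2.92 to -1.42 for GSTU25 and from -1.20 to -0.66 for GSTU27. The CSN8 effect of GSTU25 was -1.67 in batch 1 and -0.03 in batch 2, so the size of its difference depends on the batch. The effects of both lines come from arrays that look normalized separately, and the part of that in these values was not tested.

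GSTU18 and GSTU22 were singled out because DTT went with lower levels in CSN8 and higher levels in Wassilewskija in both batches. The DTT effect in CSN8 minus that in Wassilewskija was -0.85 for GSTU18 and -0.60 for GSTU22, and neither passed in limma. Without 1 array at a time the value ranged from -1.65 to -0.05 for GSTU18 and from -1.39 to 0.19 for GSTU22. These members were chosen with results of the same arrays known, so the values are descriptions.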

How the results depend on the processing

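Between csn5a-1 and Columbia 4 members were past the threshold under every alternative that kept all arrays, the replicate block included. With 1 array left out it was 2 to 4. The members may have been picked on the same values, so counts of members support nothing under any alternative. Over the 11 alternatives the csn5a-1 difference from Columbia was 1.25 to 1.43 for GSTU25 and 0.92 to 1.06 for GSTU27. The replicate numbers of these arrays only share a number (r of 0.04 to 0.07), and the block left 4 members called; of the listed genes named above it moved ZAT10 out of the calls (adjusted p = 0.0504 in limma). With the batch as a block, 1 member (GSTU22) passed in CSN8 against Wassilewskija without DTT and 1 with it, where none did without the block, and 4 passed in the CSN8 effect minus the csn5a-1 effect, where 2 did without it and 0 to 2 with 1 array left out. The block changed no other member's call. Of 415 member values under alternatives, 26 had the other sign, all by leaving out 1 array and none past the threshold. The counts over all probe sets moved by over 1.5 times in the comparisons of 2 arrays per group: with the block they were 2706 in place of 1327 for CSN8, 2045 in place of 940 for CSN8 + DTT, 705 in place of 293 for DTT in CSN8 and 186 in place of 83 for DTT in Wassilewskija. On the 4 arrays of the groups compared alone they were 289, 624, 3 and 2, in the same order. Leaving out 1 array gave 408 to 1035, 103 to 490, 2 to 246 and 1 to 41. For the difference of the DTT effects 9 probe sets passed without CSN8 + DTT of batch 2. For the CSN8 effect minus the csn5a-1 effect 2657 passed without Wassilewskija of batch 1, in place of 3995. The cause of these shifts was not tested. Signal over background was not available, which limits the genes with low signal, such as GSTU21, GSTU23 and GSTU15. The same holds for GSTU25 in Columbia and for GSTU22 in Columbia and csn5a-1.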
